A study of Rattus norvegicus with 8 samples.

Results

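The genes described here are the mitochondrial solute carriers (Slc25a family) and the numbered subunits of the mitochondrial protein import machinery (Timm and Tomm genes) in rat liver. Members were taken by gene symbol, with 1 probe set per gene, the one with the highest mean deposited signal over the 8 arrays. The rule found 63 genes, 40 carriers and 23 import subunits, among 14217 genes with a probe set of a single symbol. Male Sprague-Dawley rats, an outbred strain with no engineered allele named in the labels, arrived at 4 weeks of age and were acclimatized for 4 days. For 4 weeks one group drank sterilized distilled water (control) and the other drank hydrogen water with 0.7 mM dissolved hydrogen. The labels give an age of 8 weeks for both groups. The study kept 8 animals per group, and 4 liver arrays from each were used for this comparison. Whether an array holds 1 animal or a pool is not stated in the labels, so each p-value reflects only the array-to-array spread. The question was which transcripts of this machinery differ in liver after hydrogen water.

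Most mitochondrial proteins are made in the cytosol and enter through the translocase of the outer membrane (TOM). Proteins with a presequence then pass the presequence translocase of the inner membrane, while carriers are handed by small TIM chaperones of the intermembrane space to the carrier translocase, which inserts them. Most Slc25a carriers sit in the inner membrane and exchange nucleotides, phosphate, carboxylates, amino acids and cofactors with the cytosol. In liver they serve the urea cycle, gluconeogenesis, fatty acid oxidation and ATP export.

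The control arrays tended to be brighter, with a trimmed mean deposited signal of 116 ± 18.8 against 92.0 ± 10.4 for hydrogen water (SD, n = 4 each; exact two-sided permutation test, p = 0.114), so the arrays were quantile-normalized. The ratio of probe sets at the 3′ and 5′ ends of a transcript tells of RNA quality. For Gapdh its log2 was 0.22 ± 0.10 in control arrays against 0.38 ± 0.08 in hydrogen water arrays (SD, 4 arrays each; exact two-sided permutation test, p = 0.0571). For beta-actin it was 1.60 ± 0.03 in control arrays against 1.64 ± 0.05 in hydrogen water arrays (SD, 4 arrays each; exact two-sided permutation test, p = 0.343). The part of these ratios in the results below was not tested. The tissue label was borne out by 11 hepatocyte markers, among them Alb and Cps1, none of which passed. Their summed signal ran from 79026 to 83291 in controls and from 82600 to 83890 with hydrogen water. Of 6 bile duct markers on the array, 3 were above the filter on low signals and 0 passed, and the summed signal ran from 1262 to 1869 in controls and from 819 to 1142 with hydrogen water. Most of that sum was the keratin Krt18, which hepatocytes also express and which differed by −0.72 ± 0.15 (SE; adjusted p = 0.0577). The other bile duct markers went both ways, with Epcam at −0.37 ± 0.17 and Krt19 at −0.03 ± 0.30, and of those below the filter Spp1 at −0.56, Krt7 at 0.64 and Cftr at 0.43. Of 6 endothelial markers 0 passed by limma and 2 reached an unadjusted p under 0.05, Stab2 at 0.42 ± 0.13 and Lyve1 at 0.38 ± 0.13. The others did not follow, with Vwf at −0.16 ± 0.20, Kdr at −0.10 ± 0.10, Pecam1 at −0.04 ± 0.17 and Tek at 0.005 ± 0.14. The median of the endothelial list was −0.02. In the other lists, for Kupffer, stellate, lymphocyte, erythroid, neutrophil, adipocyte and muscle markers, 0 passed by limma. Of 6 tested Kupffer markers 3 were higher and 3 lower, with Lyz2 at −0.41 ± 0.15 (SE). Of 6 tested stellate markers 1 was higher and 5 lower, with a median of −0.13. Of 3 tested erythroid markers 2 were higher and 1 lower, with a median of 0.31. Of 5 muscle markers 1 was above the filter, Myh1, at −0.04 ± 0.14. The part of these markers in the results was not tested, and in whole liver RNA fewer cells of a type cannot be told apart from less RNA per cell.

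Of the 63 members, 54 passed the filter on mean signal over all 8 arrays, 33 carriers and 21 import subunits. Slc25a33, a carrier of pyrimidine nucleotides, rose 2.03-fold with hydrogen water, and the other 53 did not pass an adjusted p of 0.05. Of all 15521 tested probe sets 0.818% passed, and of the 9106 tested genes 0.857%, with 0.45% higher and 0.406% lower, so 1 call of 54 stands beside that background. An unadjusted p under 0.05 was reached by 7 of 33 carriers (21.2%), 6 higher and 1 lower, and by 1 of 21 import subunits (4.76%), against 12.3% of all tested genes (5.75% higher and 6.52% lower). The groups did not overlap for 5 carriers and 1 import subunit, all higher with hydrogen water, against 7.36% of all tested genes in either direction, 3.53% higher and 3.83% lower. Among these members, Slc25a33 alone was also apart in the deposited signals before normalization. The median difference, hydrogen water minus control, was 0.03 on the log2 scale for carriers and 0.06 for import subunits, against −0.0020 for all tested genes. The difference was above 0 for 20 of 33 carriers and 13 of 21 import subunits, against 49.5% of all tested genes. Without normalization, where the median of all genes was −0.33, these counts were 7 and 0, and with median centring 16 and 11, where the carrier median was −0.01. No test over the lists was made, and these counts describe them only.

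**Figure D1:**
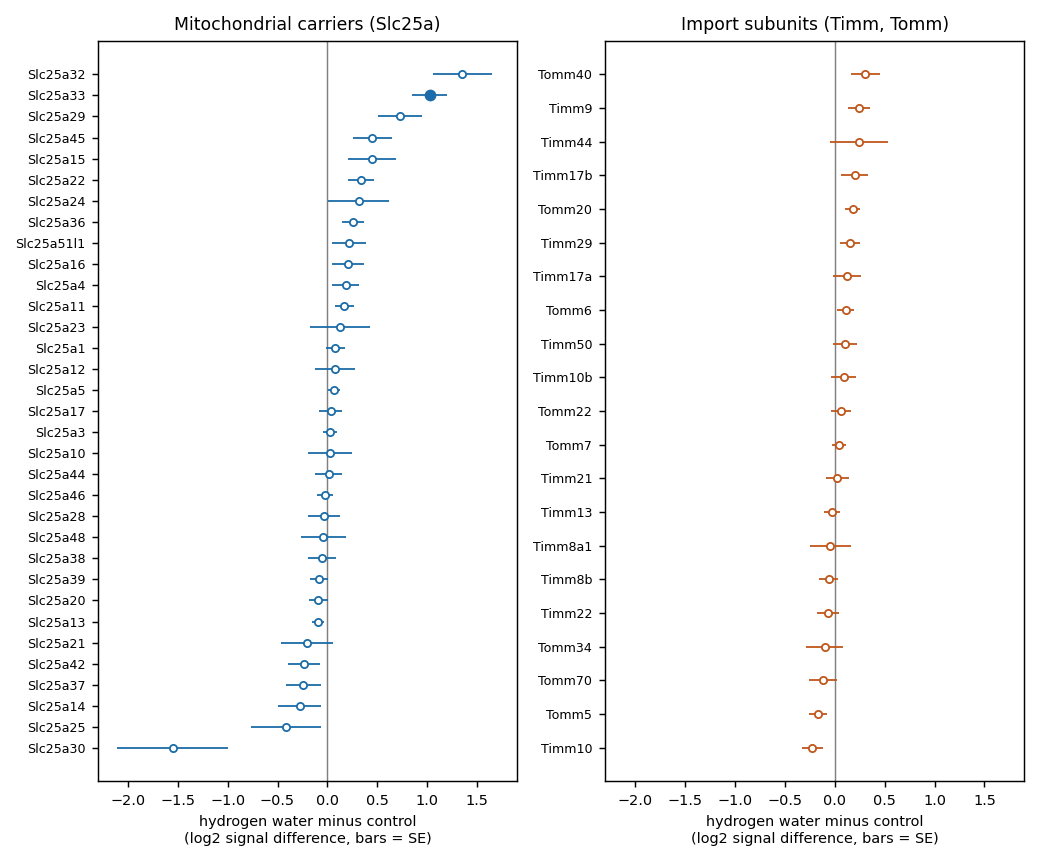
Difference in log2 signal, hydrogen water minus control, for the 33 tested carriers (left) and 21 tested import subunits (right), with SE bars from limma over 4 arrays per group. The filled point marks Slc25a33, which passed. Import subunits lie between −0.22 and 0.31, while carriers spread from −1.55 to 1.35.

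Among the carriers of nucleotides and phosphate, Slc25a33 was the member that passed. Its log2 signal was 6.40, 6.73, 6.97 and 6.19 on control arrays 1 to 4 and 7.79, 7.47, 7.75 and 7.38 on hydrogen water arrays 1 to 4. Each hydrogen water array lay above each control array. The group means were 6.58 ± 0.35 and 7.60 ± 0.20 (SD, n = 4 each), a difference of 1.02 ± 0.17 (SE; limma, adjusted p = 0.0244). The direction was the same in all 25 other settings tried. Several of these, such as the filters, the prior, the replicate block and the threshold, leave the difference itself unchanged and could not turn it. The call was lost without control array 1 (adjusted p = 0.0694), 2 (0.0558) or 4 (0.0639) or hydrogen water array 1 (0.0810) or 3 (0.0868), with differences of 0.90 to 1.07. It was also lost with array brightness as a covariate, where the difference was 0.97 (adjusted p = 0.187), without a trend in the prior (adjusted p = 0.0616), and without normalization, where it was 0.66 (adjusted p = 0.0858).

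Slc25a36, its close relative and likewise a pyrimidine nucleotide carrier, had log2 signals of 6.03, 6.20, 6.01 and 6.03 in controls and 6.26, 6.27, 6.34 and 6.41 with hydrogen water. The groups did not overlap, but the difference of 0.25 ± 0.11 (SE) was small and did not pass (adjusted p = 0.387), and it turned to −0.10 without normalization. A second Slc25a36 probe set differed by 0.11 ± 0.27 (SE). The ADP/ATP carriers Slc25a4 and Slc25a5, which bring ADP in and ATP out, differed by 0.18 ± 0.14 and 0.06 ± 0.06 (SE), and the phosphate carrier Slc25a3 by 0.03 ± 0.07. All 3 turned negative without normalization, where the median of all genes moved to −0.33. Slc25a3 and Slc25a5, read by bright probe sets, had SDs between 0.04 and 0.12 in each group, so that a change of the size of Slc25a33 would have stood out from their spread.

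The ATP-Mg/phosphate carriers, which set the adenine nucleotide content of the matrix, varied more between arrays. Slc25a25 had log2 signals of 9.81, 10.43, 10.54 and 9.01 in controls and 9.81, 9.67 and 8.64 on hydrogen water arrays 2 to 4, with array 1 the highest of that group. Its lowest value in each group was far from the rest, and the difference of −0.42 ± 0.35 (SE) lay within the spread (adjusted p = 0.709). Its relatives Slc25a23 and Slc25a24 differed by 0.12 ± 0.30 and 0.31 ± 0.31 (SE). Among the nucleotide and phosphate carriers 7 of 8 tested members had a difference above 0 (87.5%, against 49.5% of all tested genes). Their median was 0.15, and 1 rose, Slc25a33. Of the 7, Slc25a3, Slc25a4, Slc25a5 and Slc25a36 turned negative without normalization.

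The promoters of the member that rose and of the import subunit with the smallest p are shown because they carry different motifs of factors often tied to mitochondrial genes. The windows come from RefSeq (GRCr8), end just before the transcription start and are read 5′ to 3′ on the gene's strand. Capitals mark the E-box CACGTG in Slc25a33 (chr5:165502974-165503223, minus strand) and the ETS core CCGGAAG, which the factor GABPA can bind, in Tomm20 (chr19:71832421-71832670, minus strand).
Slc25a33: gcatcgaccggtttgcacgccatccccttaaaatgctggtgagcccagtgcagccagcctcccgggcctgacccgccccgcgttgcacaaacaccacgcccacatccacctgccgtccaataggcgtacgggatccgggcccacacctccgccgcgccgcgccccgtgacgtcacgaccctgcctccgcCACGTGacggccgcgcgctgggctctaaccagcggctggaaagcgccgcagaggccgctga
Tomm20: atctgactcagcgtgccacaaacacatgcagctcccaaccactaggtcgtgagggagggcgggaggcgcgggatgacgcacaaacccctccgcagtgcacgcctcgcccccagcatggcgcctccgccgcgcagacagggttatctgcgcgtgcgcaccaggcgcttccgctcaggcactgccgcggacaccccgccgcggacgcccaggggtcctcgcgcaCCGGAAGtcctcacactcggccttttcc
RefSeq windows of 300 bases, from 250 before to 50 after a start, were found for 55 of the 63 members, 56 windows in all. With both strands searched, CCGGAAG was in 7 of 21 import windows (33.3%), 6 of 35 carrier windows (17.1%) and 8.75% of all 33469 windows. CACGTG was in 3 of 21 and 3 of 35, against 6.42% of all. The palindromic motif of the factor NRF1 was in 1 import window, that of Tomm7, and 0 carrier windows, against 0.852% of all. The ERR alpha motif TCAAGGTCA was in 1 import window, that of Timm8b, and 0 carrier windows, against 0.433% of all. No window held overlapping matches of different motifs. Over the 250 bases before a start, the GC content was 70.0% for Slc25a33 and 69.2% for Tomm20, against a median of 51.2% over all windows. The part of GC content in these shares was not tested. All of these are matches of letters and not binding sites.

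Cofactor and metal carriers held the largest positive difference. Slc25a32, which brings folate into mitochondria, had log2 signals of 5.39, 4.90, 6.48 and 5.74 in controls and 7.38, 7.09, 6.65 and 6.80 with hydrogen water. The groups did not overlap, although control array 3 came close to the lowest hydrogen water array. The means of 5.63 ± 0.67 and 6.98 ± 0.32 (SD, n = 4 each) differed by 1.35 ± 0.29 (SE), which missed the threshold (adjusted p = 0.0652). It passed without control array 3, with a difference of 1.63 (adjusted p = 0.00930), and with spike-in scaling (1.38, adjusted p = 0.0191). With any other array left out the adjusted p by limma was 0.102 to 0.155, and with array brightness as a covariate it was 0.150. A dimmer probe set of Slc25a32 differed by 0.64 ± 0.28 (SE; adjusted p = 0.387), with hydrogen water array 4 inside the control range.

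None of the other cofactor and metal carriers reached an unadjusted p under 0.05. The mitoferrins Slc25a37 and Slc25a28, which supply iron for heme and iron-sulphur clusters, differed by −0.24 ± 0.18 and −0.04 ± 0.16 (SE). Slc25a39, the glutathione carrier, differed by −0.09 ± 0.09 and the coenzyme A carrier Slc25a42 by −0.24 ± 0.16. The peroxisomal carrier Slc25a17 differed by 0.03 ± 0.11. The median of the 8 genes was −0.0033, and Slc25a39 turned positive with spike-in scaling.

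Among carriers of amino acids and carnitine, 0 of 8 tested passed by limma and 2 reached an unadjusted p under 0.05. Slc25a29, a carrier of basic amino acids, had log2 signals of 5.62, 5.63, 5.68 and 5.95 in controls and 6.41, 6.08, 7.15 and 6.13 with hydrogen water. The groups did not overlap and hydrogen water array 3 was the highest, but the difference of 0.72 ± 0.22 (SE) did not pass (adjusted p = 0.184), and without that array it was 0.49. The glutamate carrier Slc25a22 had log2 signals of 9.91, 10.24, 10.18 and 9.82 in controls and 10.62, 10.12, 10.47 and 10.29 with hydrogen water, with 1 hydrogen water array inside the control range. It differed by 0.34 ± 0.13 (SE; adjusted p = 0.293), and by 0.03 without normalization.

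Slc25a15, the ornithine carrier of the urea cycle, was read by 5 tested probe sets. All 5 had positive differences, from 0.31 to 0.54, and none passed. At the brightest the log2 signals were 10.82, 11.16, 11.58 and 10.93 in controls and 12.07, 10.81, 11.83 and 11.55 with hydrogen water, so the groups overlapped, with hydrogen water array 2 the lowest of all 8 and hydrogen water array 4 just below control array 3. The difference there was 0.45 ± 0.24 (SE; adjusted p = 0.512). The probe sets share the same arrays and are not replicates of each other.

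The remaining carriers of this group sat near 0. Citrin (Slc25a13), the aspartate/glutamate carrier typical of liver, differed by −0.09 ± 0.06 (SE), and its second probe set by −0.06 ± 0.06. Its paralogue Slc25a12 differed by 0.08 ± 0.20. The carnitine-acylcarnitine carrier Slc25a20, which admits fatty acids for oxidation, differed by −0.09 ± 0.10 and the glycine carrier Slc25a38 by −0.05 ± 0.14. Slc25a13 turned positive with spike-in scaling, and Slc25a12 turned negative with median centring and without normalization.

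The 4 carboxylate carriers, among them those that serve lipogenesis and the malate shuttles, did not pass either. Slc25a11, the oxoglutarate-malate carrier, had log2 signals of 8.89, 9.10, 9.28 and 9.21 in controls and 9.28, 9.29, 9.31 and 9.28 with hydrogen water. The groups were separate by a hair, and the difference was 0.17 ± 0.09 (SE; adjusted p = 0.510), turning negative without normalization. The citrate carrier Slc25a1 differed by 0.08 ± 0.09 and the dicarboxylate carrier Slc25a10 by 0.02 ± 0.22, both turning negative without normalization. Slc25a10 also turned negative with median centring and in 3 of 8 fits with 1 array left out. The fourth, Slc25a21, differed by −0.21 ± 0.26 (SE).

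**Figure D2:**
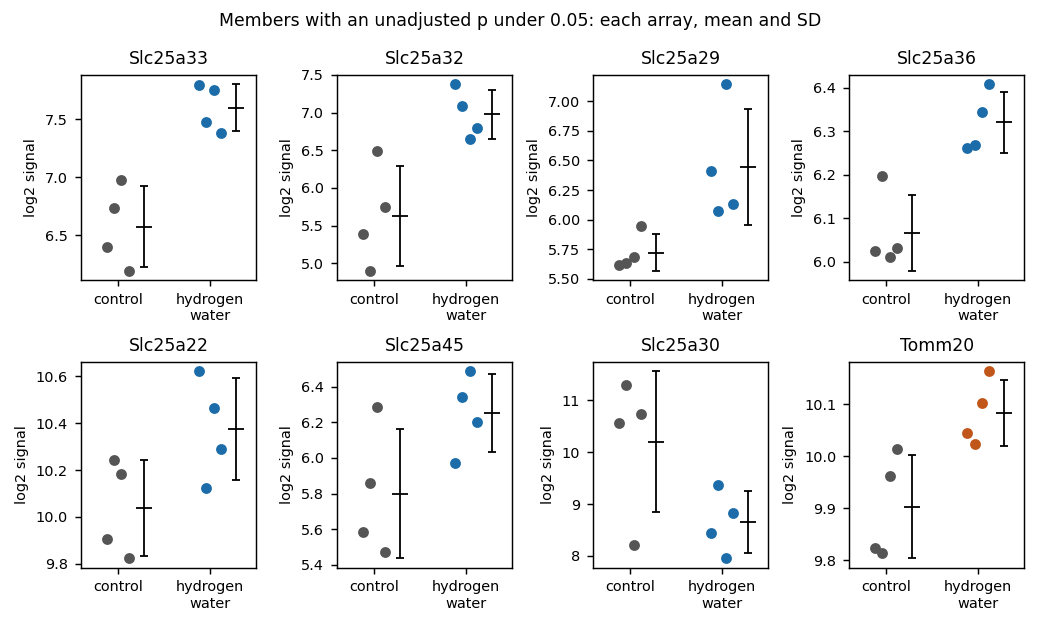
Log2 signal on each array for the 8 members with an unadjusted p under 0.05, with the mean and SD (n = 4) beside each group and a separate scale in each panel. Slc25a33, Slc25a32, Slc25a29, Slc25a36 and Tomm20 do not overlap between groups, while 1 control array of Slc25a30 lies at 8.22 beside the hydrogen water arrays.

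Slc25a30, a carrier related to the uncoupling proteins, had the lowest difference of all members. Its log2 signal was 10.55, 11.30, 8.22 and 10.73 on control arrays 1 to 4 and 8.44, 9.38, 7.95 and 8.82 on hydrogen water arrays 1 to 4. Control array 3 lay among the hydrogen water arrays, and the other 3 controls lay above all of them. The means of 10.20 ± 1.36 and 8.65 ± 0.60 (SD, n = 4 each) differed by −1.55 ± 0.56 (SE; adjusted p = 0.268), a 2.93-fold lower mean that did not pass. A second probe set gave 9.16, 9.98, 6.49 and 9.24 in controls and 6.80, 7.62, 6.64 and 7.17 with hydrogen water, with the same control array low. It differed by −1.66 ± 0.60 (SE; adjusted p = 0.268). Without control array 3 the difference at the first was −2.21 (adjusted p = 0.00712), and without normalization it was −1.87 (adjusted p = 0.0111). With any other array left out the adjusted p by limma was 0.230 to 0.481.

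Slc25a14, also related to the uncoupling proteins, differed by −0.28 ± 0.21 (SE), and Slc25a27 was below the filter. Of the carriers whose substrate is not given here, Slc25a45 had log2 signals of 5.58, 5.86, 6.29 and 5.47 in controls and 5.97, 6.34, 6.49 and 6.20 with hydrogen water. The groups overlapped through control array 3, and the difference was 0.45 ± 0.19 (SE; adjusted p = 0.365). Slc25a46, an outer membrane protein of mitochondrial shape, differed by −0.02 ± 0.08 at its brightest probe set and by 0.24 ± 0.13 at a dimmer one.

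**Figure D3:**
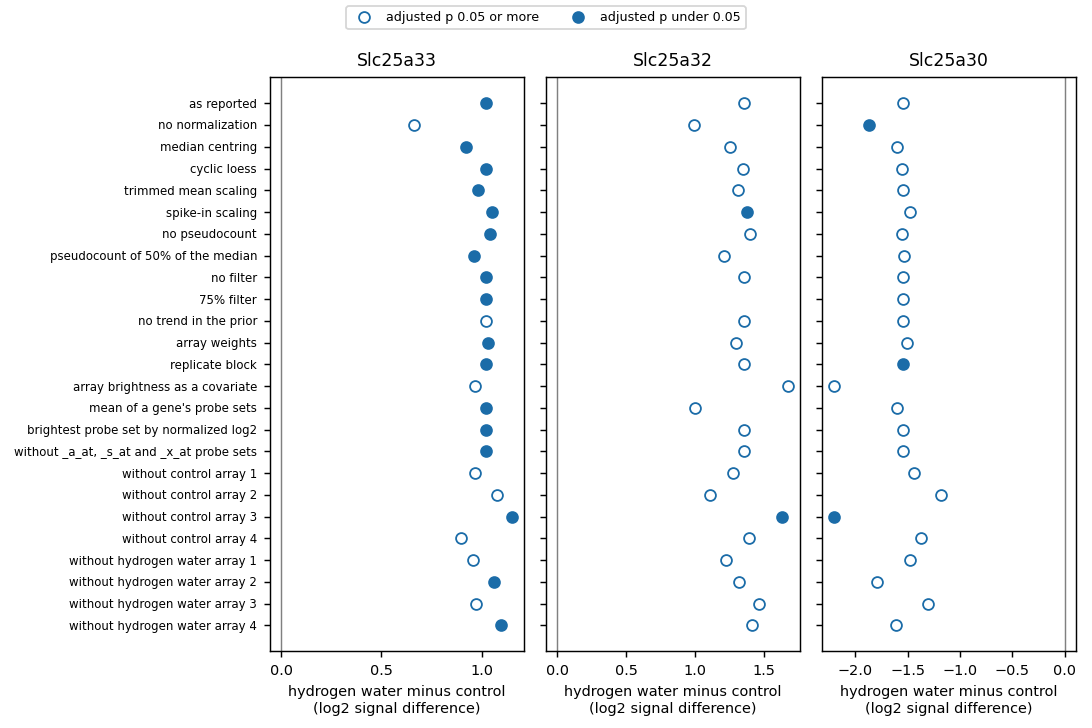
Difference in log2 signal of Slc25a33, Slc25a32 and Slc25a30 as reported and under the other settings, filled where the adjusted p was under 0.05. Each gene keeps its sign throughout, and Slc25a32 and Slc25a30 pass when control array 3 is left out.

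In the import machinery no subunit changed by the test: 0 of 21 passed, and 1 reached an unadjusted p under 0.05. Among the receptors of the TOM complex, Tomm20, which binds presequences, had log2 signals of 9.82, 9.81, 9.96 and 10.01 in controls and 10.04, 10.02, 10.10 and 10.16 with hydrogen water. The groups were just apart, with a difference of 0.18 ± 0.08 (SE; adjusted p = 0.357), and a second Tomm20 probe set that can bind several transcripts gave 0.18 ± 0.09. Without normalization the first turned negative. Tomm22, the central receptor, differed by 0.06 ± 0.10, and Tomm70, which receives carrier precursors from chaperones, by −0.12 ± 0.14 at one probe set and 0.04 ± 0.10 at the other. Tomm22 turned negative without normalization and with median centring.

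The pore subunit Tomm40 had log2 signals of 6.45, 7.11, 6.86 and 6.68 in controls and 7.02, 7.28, 7.03 and 7.00 with hydrogen water. The difference of 0.31 ± 0.15 (SE; adjusted p = 0.435) was the largest of the import subunits, with control array 2 inside the hydrogen water range. Without normalization it turned negative, as did every import subunit that was positive. The small subunit Tomm5 differed by −0.17 ± 0.09, and the co-chaperone Tomm34 by −0.10 ± 0.19. Over the 8 tested Tomm genes, Tomm34 included, the median was 0.05.

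The 5 tested subunits of the presequence translocase all had positive differences, between 0.03 and 0.24, none with an unadjusted p under 0.05. Timm23 was read by a probe set that lists several symbols, so it was not counted here. That probe set differed by 0.03 ± 0.06 (SE). Timm17b and Timm17a, which line the translocase channel, differed by 0.20 ± 0.14 and 0.13 ± 0.14 (SE), the receptor Timm50 by 0.10 ± 0.12 and Timm44, which tethers the import motor, by 0.24 ± 0.29. These turned negative without normalization, and Timm17a, Timm44 and Timm50 also turned slightly negative with 1 array left out. In the carrier translocase, Timm22 differed by −0.06 ± 0.11 and Timm29 by 0.16 ± 0.10.

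The partner chaperones Timm9 and Timm10, which form a complex that ferries carriers, had differences of opposite sign. Timm9 had log2 signals of 7.85, 8.34, 7.95 and 8.10 in controls and 8.42, 8.27, 8.25 and 8.28 with hydrogen water, a difference of 0.24 ± 0.11 (SE; adjusted p = 0.420). Timm10 had 9.12, 9.48, 9.59 and 9.44 in controls and 9.14, 9.12, 9.30 and 9.18 with hydrogen water, a difference of −0.22 ± 0.11 (SE; adjusted p = 0.422). In both genes 1 or more control arrays fell within the hydrogen water range, and whether the differences of the 2 genes differ was not tested. Timm13 and Timm8a1, of the other small TIM chaperone, differed by −0.03 ± 0.08 and −0.05 ± 0.21, Timm13 turning positive with spike-in scaling.

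**Figure D4:**
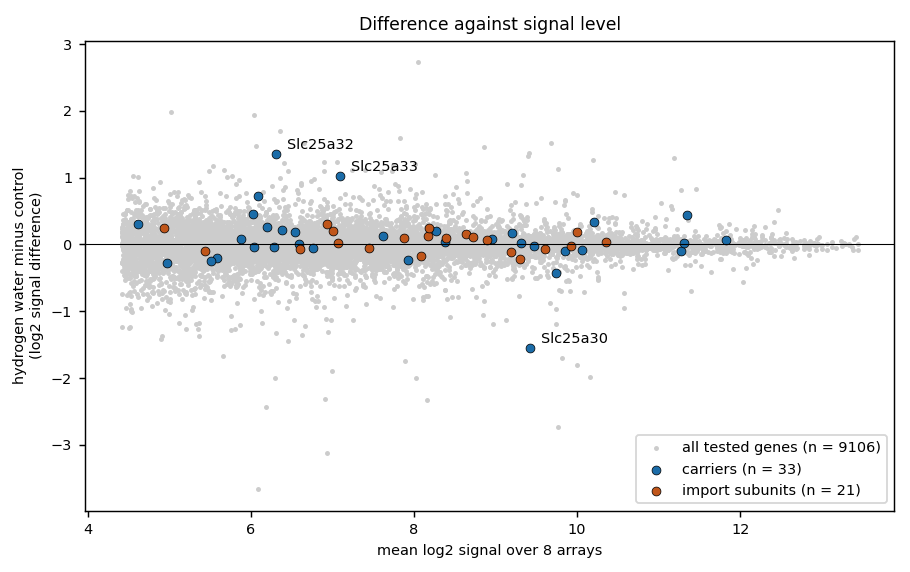
Difference in log2 signal against mean log2 signal over the 8 arrays for 9106 tested genes (grey), 33 carriers (blue) and 21 import subunits (orange). Slc25a32 and Slc25a33 lie above most grey points at their level and Slc25a30 below most, while the import subunits stay close to 0. The grey points run from −3.66 to 2.73.

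The carriers were more varied than the import subunits. A difference smaller than 0.25 in size was seen for 20 of 21 import subunits (95.2%), 22 of 33 carriers (66.7%) and 76.7% of all tested genes. The median SE was 0.11, 0.16 and 0.14 in the same order, and the median log2 signal was 8.18, 7.62 and 7.00, so the import subunits were also read at higher signals. An SD over 0.5 in either group was found for 6 carriers and 1 import subunit. No test of this contrast was made.

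Set against each other, the classes did not part between groups. On each array, the median over members of the log2 signal centred on each gene's mean was −0.01, −0.05, 0.07 and −0.13 for carriers on control arrays 1 to 4, and 0.01, 0.02, 0.11 and 0.05 on hydrogen water arrays 1 to 4. For import subunits it was −0.08, 0.05, 0.07 and −0.05 in controls and 0.07, 0.03, 0.00 and 0.01 with hydrogen water. Both ranges overlap between groups, and control array 3 was the highest control for both classes. The median difference of carriers minus that of import subunits was −0.03, within the spread of 0.07 (SD within groups) of the per-array contrast. Taken from the per-array medians instead, the same contrast had the opposite sign, 0.04.

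**Figure D5:**
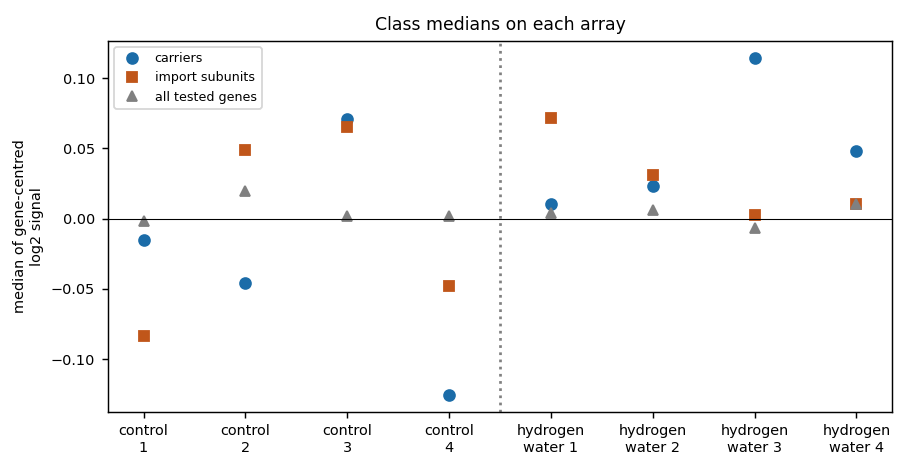
Median of gene-centred log2 signal on each of the 8 arrays for carriers (circles), import subunits (squares) and all tested genes (triangles), in log2 units. Carriers run from −0.13 to 0.07 in controls and from 0.01 to 0.11 with hydrogen water, so that the groups overlap.

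The partners of this machinery outside the rule gave 0 called genes by limma in 4 lists. Of 28 tested partners of import, such as the motor chaperone Hspa9 and the processing peptidase Pmpcb, 0 passed and 1 reached an unadjusted p under 0.05, the median difference being 0.01. That gene, the outer membrane metaxin Mtx3, differed by 0.32 ± 0.13 (SE), followed by Mtch2 (0.11 ± 0.06), Pmpcb (0.13 ± 0.08) and Pam16 (−0.12 ± 0.09). Mtx3, Mtch2 and Pmpcb turned negative without normalization. Of 22 tested genes of other mitochondrial transport, none passed and 1 fell under an unadjusted p of 0.05, the median difference being −0.02. The sideroflexin Sfxn5 differed by −0.50 ± 0.16, Cpt1a, which commits fatty acids to oxidation, by −0.22 ± 0.10, Tspo by 0.32 ± 0.16 and Tmem14c by 0.16 ± 0.08, the last 2 turning negative without normalization. Of 19 genes of mitochondrial proteases and shape, none passed either threshold, adjusted or not, the median difference was −0.0053, and the smallest p-values were those of Immt at 0.16 ± 0.08, Phb2 at −0.15 ± 0.11, Yme1l1 at 0.17 ± 0.13 and Oma1 at −0.18 ± 0.18. Immt and Yme1l1 turned negative without normalization.

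Of 22 tested regulators of mitochondrial biogenesis, 0 passed by limma and 5 reached an unadjusted p under 0.05, 3 higher and 2 lower (22.7%, against 12.3% of all tested genes), with a median of 0.04. The coactivators Ppargc1b and Ppargc1a, which drive genes of mitochondria, differed by 0.90 ± 0.20 (SE; adjusted p = 0.0670) and 1.02 ± 0.33 (adjusted p = 0.218). Ppargc1b went from 5.37 ± 0.17 to 6.27 ± 0.40 (SD, 4 arrays each) without overlap. Polg2, a subunit of the mitochondrial DNA polymerase, differed by 1.07 ± 0.27 (adjusted p = 0.0995) and Mterf1, a mitochondrial transcription terminator, by −0.27 ± 0.10 (adjusted p = 0.292). The groups did not overlap for Mterf1 either, so 1 regulator was apart higher and 1 lower (9.09%, against 7.36% of all tested genes). Ppargc1b passed without hydrogen water array 2 (adjusted p = 0.0401) and Polg2 without control array 3 (adjusted p = 0.0376), and both passed with spike-in scaling. With other arrays left out the adjusted p by limma rose to as much as 0.167 for Ppargc1b and 0.233 for Polg2. With array brightness as a covariate it was 0.340 and 0.313.

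Over member genes with several probe sets, 18 further probe sets were tested. Of these, 15 had the sign of the brightest one, 3 had an unadjusted p under 0.05 and 0 passed by limma. The 9 members below the filter were Slc25a18, Slc25a27, Slc25a31, Slc25a34, Slc25a35, Slc25a41, Slc25a53, Timm8a2 and Tomm40l, with mean deposited signals from 1.44 to 16.5, and Slc25a31, an ADP/ATP carrier known from testis, was the dimmest. Tested without the filter, none of the 7 carriers and 2 import subunits among them passed.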

How the data were processed

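Liver RNA was measured on Affymetrix rat arrays, per the labels' protocols. The deposited values are MAS5 signal intensity on a linear scale, 1 per probe set, per the submitters' processing notes, and neither software version nor scaling target is given in the sources used here. Precision is limited by the number of arrays, 8. Before taking log2, 2.05 (10% of the overall median) was added as a pseudocount, arrays were quantile-normalized, 57 control probe sets were left out, and the 15521 of 31042 others whose mean log2 signal reached the median of these means were tested. The design file names this fit: limma 3.58.1 in R 4.3.3 (lmFit, eBayes with trend, no covariate), Benjamini-Hochberg over all tested probe sets, threshold 0.05. It called 127 probe sets. Folds come from log2 of signal plus pseudocount, which shrinks those of dim probe sets. Symbols came from the platform annotation, and all 63 members matched RefSeq (GRCr8) by Entrez ID.

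The members and lists were chosen with earlier results of these data known. Named members are those with an unadjusted p under 0.05, the 4 largest differences in each direction per class and a fixed set of well-known members, and of each other list the 4 with the smallest p. Slc25a17, Slc25a21, Slc25a23, Slc25a24, Slc25a46 and Timm29 fall outside this rule and were added after their values were seen. Promoter motifs were chosen after the values were seen. The fit was tested on simulated data. The alternatives were other normalizations, pseudocounts, filters, priors, array weights, a replicate block, a brightness covariate, other probe set choices, a threshold of 0.10 and leaving out each array.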

Additional observations from a re-analysis of the deposited data

Results flagged for a closer look

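In groups of 4 arrays, the gap of 1 array to its nearest neighbour was compared with the whole range of the group, against Dixon's 95% critical value. Of 116 groups checked, 8 passed, and chance gives about 1 in 20, so the count is close to chance. Control array 2 had a Slc25a36 log2 signal of 6.20, above 6.01 to 6.03 on the other controls. Control array 4 was low for Slc25a38 at 6.47, against 6.86 to 6.93, and for Timm50 at 7.49, against 7.91 to 7.96, and high for Mterf1 at 8.37, against 8.10 to 8.15. Hydrogen water array 2 was high for Tomm40 at 7.28, against 7.00 to 7.03. Hydrogen water array 3 was low for Slc25a20 at 9.66, against 9.85 to 9.87, and for Yme1l1 at 8.64, against 9.05 to 9.14. Hydrogen water array 4 was high for Tomm22 at 9.20, against 8.82 to 8.86. Control array 3, which stands apart for Slc25a30, did not pass this ratio.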

How the results depend on the processing

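Of 55 named genes, 25 kept their sign in all settings that gave a value, and 0 called values changed sign. The filters, the prior, the replicate block and the threshold leave a difference unchanged, so they could not turn a sign. The import subunits had 0 called members in all settings. Against 127 probe sets and 1 carrier as reported, no normalization gave 505 probe sets (21 higher) and 1 carrier (Slc25a30 in place of Slc25a33), no trend in the prior 64 and 0, the brightness covariate 12 and 0, and a threshold of 0.10 gave 352 and 2. Spike-in scaling gave 2 carriers, Slc25a32 and Slc25a33. Replicate numbers did not pair the arrays: correlations of same-numbered arrays ran from −0.10 to 0.20, and 1 of 4 pairs correlated best with its own number. The replicate block gave 178 probe sets and 2 carriers, Slc25a30 (adjusted p = 0.0391) and Slc25a33, and with it the regulators Ppargc1b (adjusted p = 0.0399) and Polg2 (0.0167) also passed. Leaving out 1 array gave 55 probe sets without hydrogen water array 3 to 197 without control array 3, 61 without control array 2 or hydrogen water array 1, 58 without control array 4 and 68 without hydrogen water array 4, and 0 to 3 carriers.

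The carrier median of 0.03 became −0.27 without normalization (7 of 33 above 0), −0.01 with median centring (16 of 33 above 0), 0.11 with spike-in scaling and 0.11 with the brightness covariate, and ran from 0.01 to 0.09 over arrays left out. The import median of 0.06 became −0.26 without normalization, 0.00368 with median centring and 0.13 with spike-in scaling, and ran from −0.00200 without control array 4 to 0.11 without control array 3. Relative to all genes, whose median was −0.33 without normalization, carriers were then at 0.06 and import subunits at 0.08. Carriers minus import subunits was 0.0545 with the brightness covariate and ran from −0.0680 to 0.0495 over arrays left out. Where these values moved, the cause was not tested. Without detection calls, signals near the filter cannot be set apart from background.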

Other observations

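Probe sets whose annotation lists several gene entries were not counted as members. Both 1379456_at and 1386478_at carry the symbol Slc25a51, a carrier of the cofactor NAD, under 2 gene IDs. The first had log2 signals of 8.03, 7.35, 7.64 and 7.64 in controls and 8.31, 8.14, 8.43 and 8.34 with hydrogen water, a difference of 0.64 ± 0.14 (SE; limma, adjusted p = 0.0632). The second differed by 0.53 ± 0.15 (SE; adjusted p = 0.156). At both, every hydrogen water array lay above every control array, and neither passed. They share the same arrays and are not replicates of each other. Another probe set, 1398763_at, lists Timm23 beside other symbols and differed by 0.03 ± 0.06.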
